A study of Mus musculus with 8 samples.

Results

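The proteasome genes were followed in CD8+ T cells from mouse spleen across genotype and activation. They were taken as every gene whose symbol begins with Psma, Psmb, Psmc, Psmd, Psme, Psmf or Psmg and a digit, on probe sets that carry 1 gene symbol. This gave 49 of the 18193 genes named on the array, on 103 probe sets, and 1 probe set per gene was used, the one with the highest mean signal over all arrays. Wild-type cells (WT, strain C57BL/6) and cells from Elf4-/- mice (KO), which lack an ETS-family transcription factor, were either left untreated (naive) or cultured for 3.5 days on plates coated with antibody to CD3 together with antibody to CD28 (activated). The medium held serum and the supplement T-stim, and the labels do not say how long, if at all, the untreated cells were in culture. Each of the 4 groups had 2 Affymetrix arrays, 8 in all. Whether the 2 samples of a group came from different animals or cultures is not in the labels, and the p-values cover no more than their spread, possibly a technical one. The labels do not give the age or sex of the animals or the part of Elf4 that was deleted.

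The proteasome is the protease complex that degrades proteins tagged with ubiquitin. Its core particle is a barrel of alpha and beta rings, and in the inner beta rings the subunits encoded by Psmb5, Psmb6 and Psmb7 carry the catalytic sites. Immune cells, and other cells under interferon, can replace them with Psmb8, Psmb9 and Psmb10, which gives the immunoproteasome, known for making peptides presented on MHC class I. A regulatory cap with a ring of ATPases and a lid recognises, unfolds and feeds substrates, and alternative activators such as PA28 can sit in its place.

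Facts of the whole data set bear on all comparisons. Every array had been scaled to the same trimmed mean of 500, so a change is relative to the other transcripts of that array and not per cell. Medians ranged from 63.9 to 86.0. Pearson's r of log2 values was 0.940 to 0.959 between replicate arrays, 0.941 to 0.956 between genotypes of one state, and 0.862 to 0.887 between states. The Elf4 probe sets did not separate the genotypes: the brighter one read 116 and 199 in naive WT, 165 and 192 in naive KO, 83.6 and 134 in activated WT, and 76.2 and 80.6 in activated KO arrays (adjusted p = 0.892 naive and 0.814 activated, limma). Since the deleted part is not given, they do not check the genotype labels. Cd8a read 14240 to 17150 in naive and 4288 to 6290 in activated arrays, and Cd4 stayed between 18.0 and 43.1 in all 8. Both naive WT arrays carry the same array-file label in their descriptions, while their values differ.

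State moved with other measures. The 3′ to 5′ signal ratio of Actb, a measure of RNA integrity and labelling, was 1.96 to 2.50 in the 4 naive and 5.90 to 11.1 in the 4 activated arrays. The Gapdh ratio was 3.38 to 4.42 against 4.83 to 7.56. The Lys spike-in control read 989 to 1654 against 62726 to 78734. The X-inactivation transcript Xist read 60.3 to 172 against 7703 to 10011, and the Y-linked gene Eif2s3y read 2537 to 5146 against 2.93 to 44.0. By these genes the naive samples read as male and the activated samples as female. None of these ranges overlapped between the states, so activation cannot be told apart from whatever else differed between the naive and the activated samples.

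Promoter sequences were at hand for 41 of the 49 genes, from RefSeq on build GRCm38.p6, as the 250 bases before each annotated start. They are shown for the 3 immunoproteasome genes and for 3 cap genes that held an ETS type match, in capitals where short motifs were found on either strand. These 3 cap genes had the largest rises with activation, in WT and in KO, among the cap genes with that match. The motifs searched were an interferon regulatory factor type (GAAA, any 2 bases, GAAA), TTCNNNGAA (STAT type), TGACNNNGC (antioxidant element type, bound by factors such as Nfe2l1), CCGGAAG (ETS type, the family of Elf4) and CCAAT. The immunoproteasome gene Psmb8 at chr17:34197945-34198194 (plus strand) held 1 STAT type match. Psmb9 and the peptide transporter gene Tap1 start 225 bases apart on opposite strands, and the whole stretch between them, chr17:34187331-34187555 (plus strand), held 1 CCAAT match. Psmb10 at chr8:105938393-105938642 (minus strand) held none of the motifs searched, which says only that these letters are not in this window. Capitals mark the matches.
Psmb8: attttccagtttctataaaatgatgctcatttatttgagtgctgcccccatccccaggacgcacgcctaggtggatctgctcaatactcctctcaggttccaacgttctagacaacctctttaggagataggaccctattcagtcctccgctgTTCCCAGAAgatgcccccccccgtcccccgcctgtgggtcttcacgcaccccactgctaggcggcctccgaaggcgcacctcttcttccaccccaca
Psmb9-Tap1: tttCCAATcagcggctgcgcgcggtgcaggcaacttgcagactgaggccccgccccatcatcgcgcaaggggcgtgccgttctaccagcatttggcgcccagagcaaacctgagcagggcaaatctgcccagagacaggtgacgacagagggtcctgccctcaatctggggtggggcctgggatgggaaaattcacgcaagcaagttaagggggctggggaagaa
Psmb10: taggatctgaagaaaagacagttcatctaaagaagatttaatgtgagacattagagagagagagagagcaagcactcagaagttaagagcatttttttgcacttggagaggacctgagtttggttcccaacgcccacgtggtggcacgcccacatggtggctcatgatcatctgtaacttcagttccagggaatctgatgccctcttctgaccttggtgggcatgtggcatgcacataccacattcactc

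The cap genes Psmc6 at chr14:45329574-45329823 and Psmd12 at chr11:107479278-107479527 (both plus strand) each held 1 ETS type and 1 antioxidant element type match, and Psmd6 at chr14:14120946-14121195 (minus strand) held 1 ETS type match. These 3 cap genes were chosen among those that rose with activation, so their rise is part of the choice. Psmd4, a cap gene that also held the ETS type motif, was lower in WT (log2 −0.45). A link between the motif and the change was not tested.
Psmc6: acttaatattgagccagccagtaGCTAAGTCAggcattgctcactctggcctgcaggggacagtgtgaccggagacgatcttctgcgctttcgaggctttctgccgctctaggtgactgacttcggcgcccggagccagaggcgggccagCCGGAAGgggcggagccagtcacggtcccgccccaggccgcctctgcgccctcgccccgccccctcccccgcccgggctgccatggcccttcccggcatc
Psmd12: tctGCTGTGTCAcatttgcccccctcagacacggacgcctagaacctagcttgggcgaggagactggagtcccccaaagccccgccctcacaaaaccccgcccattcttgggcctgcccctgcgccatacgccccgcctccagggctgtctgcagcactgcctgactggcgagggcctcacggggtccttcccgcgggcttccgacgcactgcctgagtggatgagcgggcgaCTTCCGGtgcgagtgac
Psmd6: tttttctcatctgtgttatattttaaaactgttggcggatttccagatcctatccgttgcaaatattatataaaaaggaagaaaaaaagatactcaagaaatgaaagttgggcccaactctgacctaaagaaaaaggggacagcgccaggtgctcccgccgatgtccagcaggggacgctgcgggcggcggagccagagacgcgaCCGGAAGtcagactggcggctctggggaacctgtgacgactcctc

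The ETS type motif stood in 14 of the 44 promoters of the proteasome genes (31.8%), against 6.91% of all 32851 promoters of that length and 12.6% of promoters of genes tested on the arrays. Of 15 cap promoters 9 held it, those of Psmc1, Psmc2, Psmc6, Psmd2, Psmd4, Psmd6, Psmd11 and Psmd12, against 1 of 12 of the constitutive core and 0 of 3 of the immunoproteasome. The antioxidant element type stood in 11.4% of the proteasome promoters and 10.2% of all promoters. The interferon regulatory factor type stood in 3 of the 44 (6.82%, against 2.98% of all), with 0 of 3 in the immunoproteasome. CCAAT stood in 36.4% against 33.8% of all. The STAT type stood in 2 of the 44 (4.55%), those of Psmb8 and Psmg1, against 7.02% of all and 5.90% of promoters of genes tested on the arrays. These are matches of letters in a short window and show no binding.

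Activation was the comparison in which proteasome genes moved. In WT cells 24 of the 47 genes tested were higher in activated than in naive arrays and 9 were lower (adjusted p under 0.05, limma with Benjamini-Hochberg adjustment over all 27389 probe sets tested). The background was 39.1% of all probe sets called, 17.4% higher and 21.8% lower, so 51.1% of the proteasome genes were higher against 17.4%, and 19.1% were lower against 21.8%. In KO cells 26 were higher and 9 lower (55.3% and 19.1%), against a background of 41.6%, 18.2% higher and 23.4% lower. These background shares count all probe sets tested, dim ones included, while each proteasome gene is counted on its brightest probe set. With the mean over all probe sets of a gene in place of the brightest one, 15 were higher and 8 lower in WT, or 23 called. In KO 22 were higher and 10 lower, or 32 called. Under that rule 5002 of all 11515 genes tested were called in either direction in WT and 5248 in KO. In WT the share of proteasome genes called in either direction was then close to that of all genes, and in KO it was above it. The background by direction was not counted under that rule. The median log2 change of the 49 genes was 0.60 in WT and 0.54 in KO, beside −0.16 in each for all probe sets tested. At least 2-fold rises were called for 12 genes in WT (25.5%) and 13 in KO (27.7%), where the background was 12% and 12.7%. The 2 genes not tested, the testis gene Psma8 and the thymus gene Psmb11, read 2.05 to 59.8 and 2.91 to 74.2 and were too dim on most arrays.

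The comparisons of activation in WT and in KO share no array. They are not independent, since 1 fit gave both the same estimate of spread, and the measures that moved with state did so in both. The share of all probe sets called in both genotypes was not counted. All 24 genes called higher in WT were also higher in KO, which is 92.3% of the 26 in KO, where Psma2 and Psmc2 were called as well. Of 9 lower in each, 8 were shared (88.9% of each), with Psmd4 called in WT and Psmc4 in KO. For none of these 4 genes did the difference between genotypes pass (adjusted p = 0.587 for Psma2, 0.538 for Psmc2, 0.925 for Psmd4 and 0.178 for Psmc4).

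**Figure D1:**
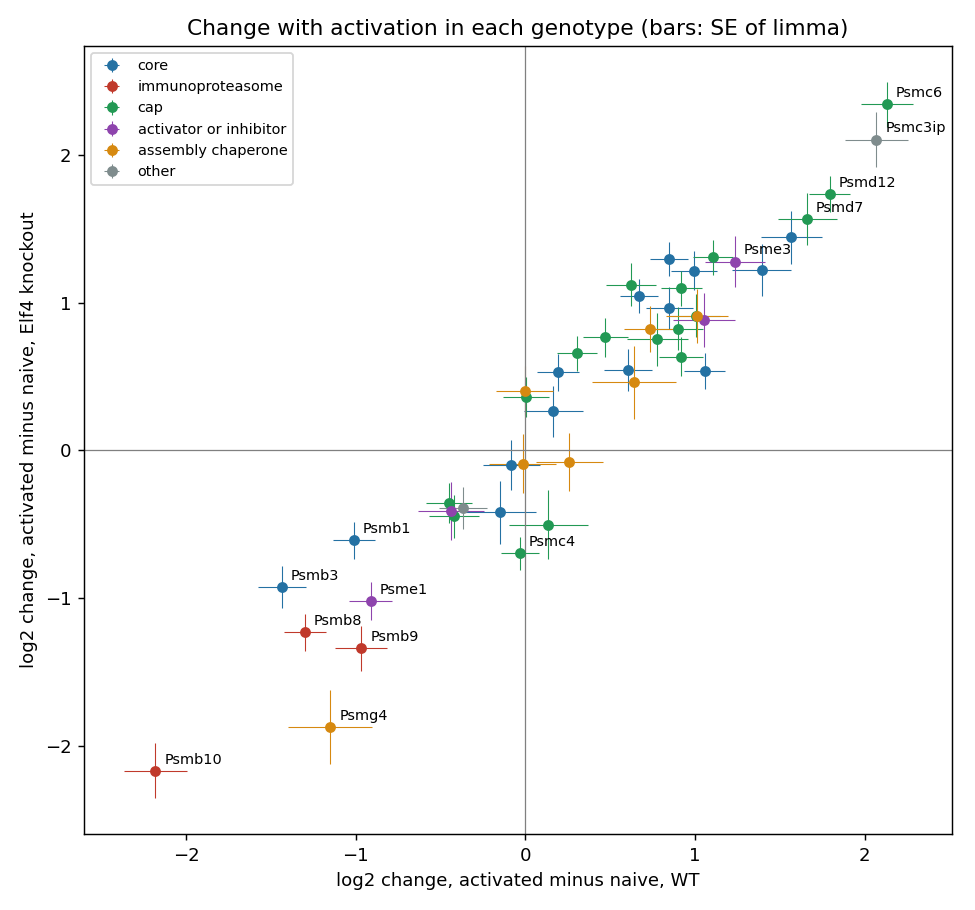
Log2 change from naive to activated cells in WT (horizontal axis) and Elf4 KO cells (vertical axis), 1 point per tested proteasome gene, coloured by role, with bars of 1 SE from limma. Psmc6 lies at the upper right (2.13 and 2.34) and Psmb10 at the lower left (−2.18 and −2.17).

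The immunoproteasome subunits fell while their constitutive partners did not. All 3, Psmb8, Psmb9 and Psmb10, were lower after activation in both genotypes. Of the 3 constitutive catalytic genes, Psmb5 rose in both genotypes and Psmb6 and Psmb7 did not pass the test in either. B cell, macrophage and granulocyte markers are genes of cells that could be left in the preparation and that themselves express immunoproteasome genes. Most B cell markers and part or all of the tested macrophage markers fell in both genotypes, and granulocyte markers passed as lower in KO only. Of 6 B cell markers 5 fell in WT and 5 in KO, with a summed signal of 3588 to 9963 in naive and 421 to 600 in activated arrays. Of 8 macrophage and monocyte markers, 6 of them tested, 3 fell in WT and 6 in KO, with sums of 2198 to 6306 against 559 to 687. Of 8 granulocyte markers 0 fell in WT and 7 in KO. Their sum was 405 and 688 in naive WT, 4647 and 19478 in naive KO, and 192 to 385 in activated arrays. Of 2 NK markers tested 1 fell in WT and 2 in KO, of 3 dendritic cell markers 1 fell in each and 1 rose in WT, of 3 erythroid and platelet markers 2 rose in each, and the 1 CD4 T cell marker tested did not pass. No deposited value of any gene was at or under 0, so a value above 0 does not show that a marker was detected. Some markers were very dim on activated arrays, such as Lcn2 at 2.11 to 4.36 and S100a9 at 2.44 to 29.0. The part of these cells in the result was not tested. All 7 CD8 T cell markers measured also fell in both genotypes. In such bulk samples fewer cells of a type and less RNA per cell cannot be told apart.

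Psmb10, which replaces the trypsin-like subunit, had the largest fall among the proteasome genes. It read 6294 and 7198 in naive WT, 5567 and 5659 in naive KO, 1388 and 1563 in activated WT, and 1010 and 1515 in activated KO arrays. All 4 activated arrays lay far below all 4 naive ones. It was 4.57-fold lower in WT (log2 −2.18, SE 0.19, adjusted p = 6.00e-06) and 4.45-fold lower in KO (log2 −2.17, SE 0.19, adjusted p = 5.63e-06).

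Psmb8, which replaces the chymotrypsin-like subunit, read 8943 and 8959 in naive WT, 8608 and 7851 in naive KO, 3848 and 3415 in activated WT, and 3487 and 3497 in activated KO arrays. The states did not overlap, and the genotypes were close within each. The fall was 2.47-fold in WT (log2 −1.30, SE 0.12, adjusted p = 1.21e-05) and 2.36-fold in KO (log2 −1.23, SE 0.12, adjusted p = 1.59e-05). A second and dimmer Psmb8 probe set, of a kind that can bind several transcripts, changed by −0.24 in WT and −0.05 in KO and did not pass (adjusted p = 0.340 and 0.847).

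Psmb9, which replaces the caspase-like subunit, read 8479 and 6703 in naive WT, 7132 and 8933 in naive KO, 3939 and 3762 in activated WT, and 3180 and 3115 in activated KO arrays. Naive replicates were spread, but all were above every activated array. It was 1.97-fold lower in WT (log2 −0.97, SE 0.15, adjusted p = 0.000507) and 2.55-fold lower in KO (log2 −1.34, SE 0.15, adjusted p = 4.46e-05). The genotypes' falls were not shown to differ (difference −0.37, SE 0.22, adjusted p = 0.632).

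The constitutive chymotrypsin-like subunit gene Psmb5 read 5654 and 7497 in naive WT, 6753 and 6949 in naive KO, 10329 and 9500 in activated WT, and 9906 and 10090 in activated KO arrays. Activated arrays were above all naive arrays by a smaller margin. The rise was 1.51-fold in WT (log2 0.60, SE 0.14, adjusted p = 0.00578) and 1.46-fold in KO (log2 0.54, SE 0.14, adjusted p = 0.00965). The call was lost without activated WT replicate 1 (log2 0.54, adjusted p = 0.0609) and, in KO, without activated KO replicate 2 (log2 0.53, adjusted p = 0.0583). It was also lost without the eBayes trend (adjusted p = 0.0622 in WT and 0.0798 in KO) and, in KO, with quantile normalization (log2 0.33, adjusted p = 0.0770).

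Psmb6, the caspase-like subunit gene, read 5762 and 6637 in naive WT, 6612 and 4635 in naive KO, 5873 and 5793 in activated WT, and 4873 and 5489 in activated KO arrays, with overlap between states. Its change was −0.08 (95% interval −0.46 to 0.29) in WT and −0.10 (−0.47 to 0.27) in KO. Psmb7, the trypsin-like subunit gene, read 3859 and 2799 in naive WT, 2861 and 3078 in naive KO, 3674 and 3703 in activated WT, and 3983 and 3192 in activated KO arrays. Its change was 0.17 (−0.22 to 0.55) in WT and 0.26 (−0.12 to 0.65) in KO.

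**Figure D2:**
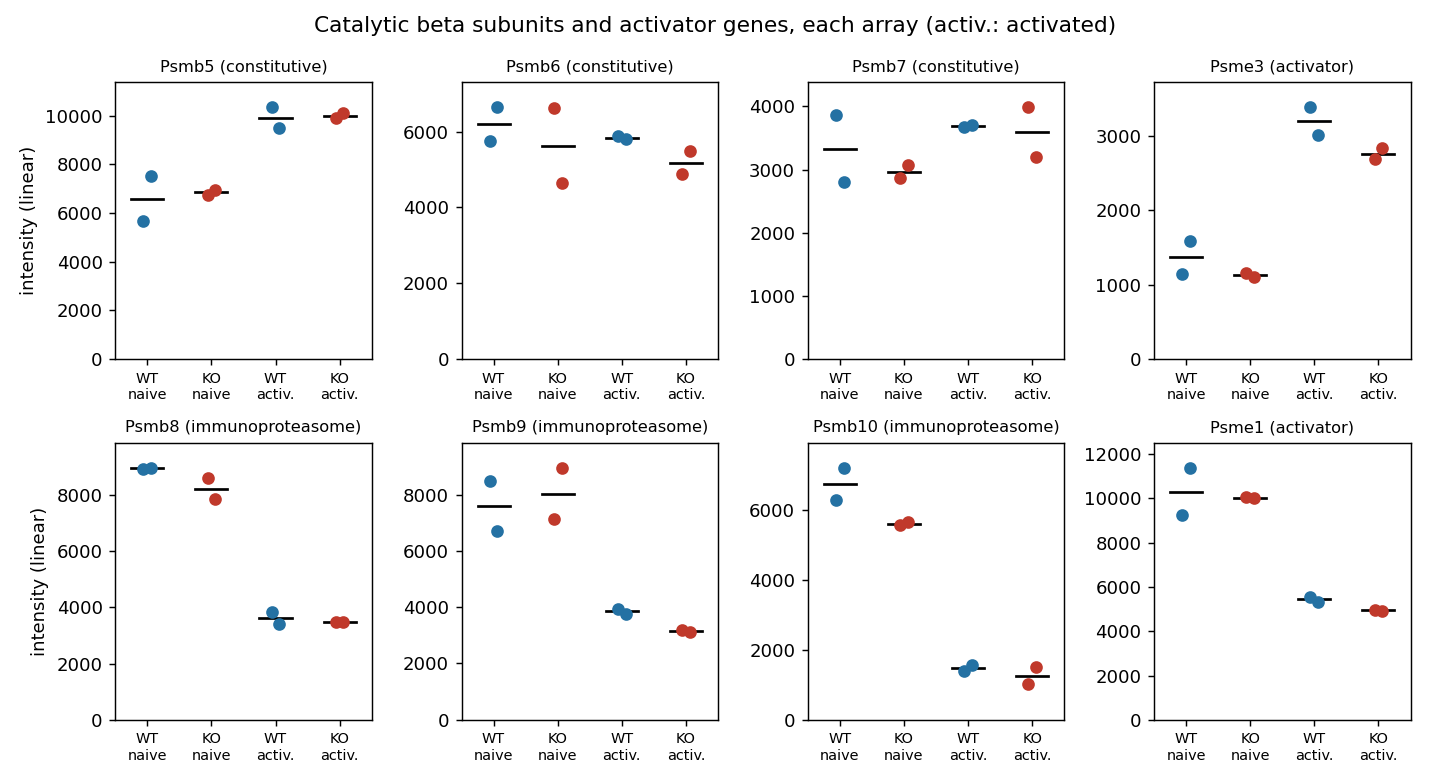
Intensity (linear axis from 0) on each array for the constitutive catalytic genes with the immunoproteasome gene that replaces each below it, and for Psme3 and Psme1, by group (blue WT, red KO, line at the mean of 2 arrays). Psmb8, Psmb9, Psmb10 and Psme1 were lower on all 4 activated arrays than on any naive array, and Psmb5 and Psme3 were higher.

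The within-array log2 ratio of each pair, taken relative to its mean on the naive WT arrays, shows the same shift free of the scaling between arrays. It is a description with no test. For Psmb8 over Psmb5 it was −0.28 to 0.20 on naive arrays and −1.98 to −1.88 on activated arrays. Psmb9 over Psmb6 ran from −0.27 to 0.66 and from −1.10 to −0.86. Psmb10 over Psmb7 ran from −0.33 to 0.33 and from −2.99 to −2.10. No pair overlapped between the states, and the activated arrays of both genotypes fell in one range.

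The activators split. Psme1 encodes a subunit of PA28 alpha-beta, the activator that interferon raises together with the immunoproteasome. It read 9240 and 11367 in naive WT, 10060 and 10015 in naive KO, 5553 and 5328 in activated WT, and 4958 and 4934 in activated KO arrays. All activated arrays were below the naive ones, 1.89-fold in WT (log2 −0.91, SE 0.13, adjusted p = 0.000200) and 2.03-fold in KO (log2 −1.02, SE 0.13, adjusted p = 8.18e-05). Its partner Psme2 was measured only on a probe set shared with Psme2b and is not counted.

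Psme3, which encodes the nuclear activator PA28 gamma, went the other way. It read 1149 and 1585 in naive WT, 1160 and 1102 in naive KO, 3386 and 3018 in activated WT, and 2697 and 2834 in activated KO arrays. The rise was 2.34-fold in WT (log2 1.23, SE 0.18, adjusted p = 0.000228) and 2.44-fold in KO (log2 1.28, SE 0.18, adjusted p = 0.000160). A second Psme3 probe set rose by 2.41 and 2.07 on the log2 scale.

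Psme4, which encodes the activator PA200, read 2361 and 1583 in naive WT, 2525 and 2733 in naive KO, 4007 and 4059 in activated WT, and 5165 and 4558 in activated KO arrays. It rose 2.05-fold in WT (log2 1.05, SE 0.18, adjusted p = 0.000866) and 1.85-fold in KO (log2 0.88, SE 0.18, adjusted p = 0.00257). The inhibitor gene Psmf1 read 1745 and 1591 in naive WT, 1210 and 1267 in naive KO, 1351 and 1109 in activated WT, and 1093 and 789 in activated KO arrays. Its change of −0.44 in WT and −0.41 in KO did not pass (adjusted p = 0.100 and 0.120).

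The alpha ring, which gates the entrance of the core, rose as a group. Of 7 alpha genes tested, 6 rose in WT and all 7 in KO, with Psma2 (0.19, adjusted p = 0.256) the exception in WT. Of all probe sets tested, 17.4% rose in WT and 18.2% in KO. Psma1 read 4056 and 4210 in naive WT, 4025 and 6071 in naive KO, 12139 and 12420 in activated WT, and 14887 and 12192 in activated KO arrays. Every activated array was far above the highest naive one. Its log2 change was 1.57 in WT (SE 0.18, adjusted p = 4.87e-05) and 1.44 in KO (SE 0.18, adjusted p = 7.84e-05). The other rises lay between 0.67 for Psma6 and 1.39 for Psma7 in WT, and between 0.53 for Psma2 and 1.22 for Psma7 in KO. The KO call of Psma2 was lost with quantile normalization (log2 0.20, adjusted p = 0.162) and without the eBayes trend (adjusted p = 0.0737), which leaves 6 of 7 there.

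The structural beta genes, which build the rings without a catalytic site, did not move together. Psmb4 rose (0.84 and 1.29 in WT and KO, adjusted p = 0.000146 and 6.02e-06), Psmb3 and Psmb1 fell, and Psmb2 did not pass. Psmb3 read 17610 and 19993 in naive WT, 18409 and 15031 in naive KO, 7316 and 6572 in activated WT, and 8073 and 9521 in activated KO arrays. The states were well apart. It was 2.71-fold lower in WT (log2 −1.43, SE 0.14, adjusted p = 1.57e-05) and 1.90-fold lower in KO (log2 −0.92, SE 0.14, adjusted p = 0.000333). Its other probe set also fell, by 1.15 in WT and 0.85 in KO.

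Psmb1 and Psmb4 depended on the probe set. The brightest Psmb1 probe set read 7265 and 7091 in naive WT, 6322 and 5669 in naive KO, 3660 and 3457 in activated WT, and 3761 and 4097 in activated KO arrays. Its log2 change was −1.01 in WT and −0.61 in KO (adjusted p = 8.49e-05 and 0.00251). A much dimmer one, of the kind that can bind several transcripts, rose by 0.97 and 1.47 (adjusted p = 0.0156 and 0.00130). Another dim one changed by 0.06 and 0.31 without passing, so the direction of Psmb1 rests on the probe set. Psmb4 was called on a probe set of the kind that can bind several transcripts. Its other probe set changed by −0.25 in WT and did not pass (adjusted p = 0.102).

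The cap mostly rose. Of its 17 genes 11 were higher and 2 lower in WT, and 12 were higher and 2 lower in KO, with a median log2 change of 0.78 and 0.77. Of all probe sets tested, 17.4% were higher and 21.8% lower in WT, and 18.2% and 23.4% in KO. Among the 6 ATPases of the cap base, Psmc6 had the largest rise of all proteasome genes. It read 2614 and 3224 in naive WT, 2655 and 3470 in naive KO, 12585 and 12914 in activated WT, and 15612 and 15268 in activated KO arrays. The groups of the 2 states were far apart. It rose 4.37-fold in WT (log2 2.13, SE 0.15, adjusted p = 1.73e-06) and 5.04-fold in KO (log2 2.34, SE 0.15, adjusted p = 8.33e-07). Its other 2 probe sets rose too, by 1.76 and 1.85 in WT and by 1.99 and 2.18 in KO.

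The other ATPases moved less and in both directions. Psmc5 (0.78 and 0.75) and Psmc1 (0.47 and 0.77) rose in WT and KO. Psmc3 was lower by 0.42 and 0.45 (adjusted p = 0.0414 and 0.0308), a call lost when each array was centred on its median (adjusted p = 0.401 and 0.216). Psmc2 rose in KO (0.66, adjusted p = 0.00107) and in WT changed by 0.31 (adjusted p = 0.0639). Calls of several small changes rested on 1 array. Without activated WT replicate 1, the WT calls of Psmc1, Psmc3, Psmc5, Psmd4 and Psmd13 were lost (adjusted p = 0.0636 to 0.111). Without activated WT replicate 2, those of Psmc1, Psmc3 and Psmd4 were lost (0.0599 to 0.232). Those of Psmc1 and Psmd4 were lost without naive WT replicate 2 (0.0630 and 0.124), and that of Psmc3 without naive WT replicate 1 (0.192) or activated KO replicate 1 (0.0504). In KO, Psmc3 was lost without naive KO replicate 1 (0.0529) or 2 (0.112) and, with Psmc5, without activated KO replicate 2 (0.224 and 0.0581).

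The scaffold genes of the base, Psmd1 and Psmd2, rose by 0.90 and 0.92 in WT and by 0.82 and 0.64 in KO. The ubiquitin receptor gene Psmd4 was lower by 0.45 in WT (adjusted p = 0.0209, and 0.232 with arrays centred on their medians) and by 0.36 in KO without passing (adjusted p = 0.0547). In the lid, 6 of 8 genes rose in both genotypes (17.4% of all probe sets in WT and 18.2% in KO) and 0 fell, with Psmd3 and Psmd8 not passing. The lid gene Psmd12 read 2597 and 2757 in naive WT, 2645 and 2626 in naive KO, 9205 and 9420 in activated WT, and 8501 and 9128 in activated KO arrays. Replicates were close and the states far apart. It rose 3.48-fold in WT (log2 1.79, SE 0.12, adjusted p = 1e-06) and 3.34-fold in KO (log2 1.73, SE 0.12, adjusted p = 1.20e-06).

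Psmd7 read 878 and 752 in naive WT, 800 and 1035 in naive KO, 2684 and 2524 in activated WT, and 2657 and 2796 in activated KO arrays. It rose 3.19-fold in WT (log2 1.66, SE 0.17, adjusted p = 2.63e-05) and 2.97-fold in KO (log2 1.57, SE 0.17, adjusted p = 3.50e-05). Psmd14, the deubiquitinase of the lid, read 6955 and 7378 in naive WT, 5925 and 5470 in naive KO, 12840 and 14330 in activated WT, and 11559 and 12871 in activated KO arrays. It rose by 0.92 in WT (adjusted p = 0.000123) and 1.10 in KO (adjusted p = 3.10e-05). Psmd6 (1.11 and 1.31), Psmd11 (1.0 and 0.91) and Psmd13 (0.62 and 1.12) were the other lid genes that rose in WT and KO. With the mean over a gene's probe sets the calls of Psmd7 (0.26 and 0.47), Psmd11 (0.19 and 0.31) and Psmd13 (−0.12 and 0.41) were lost in both genotypes. That of Psmd11 was also lost without _x_at and _s_at probe sets (0.52 and 0.27).

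**Figure D3:**
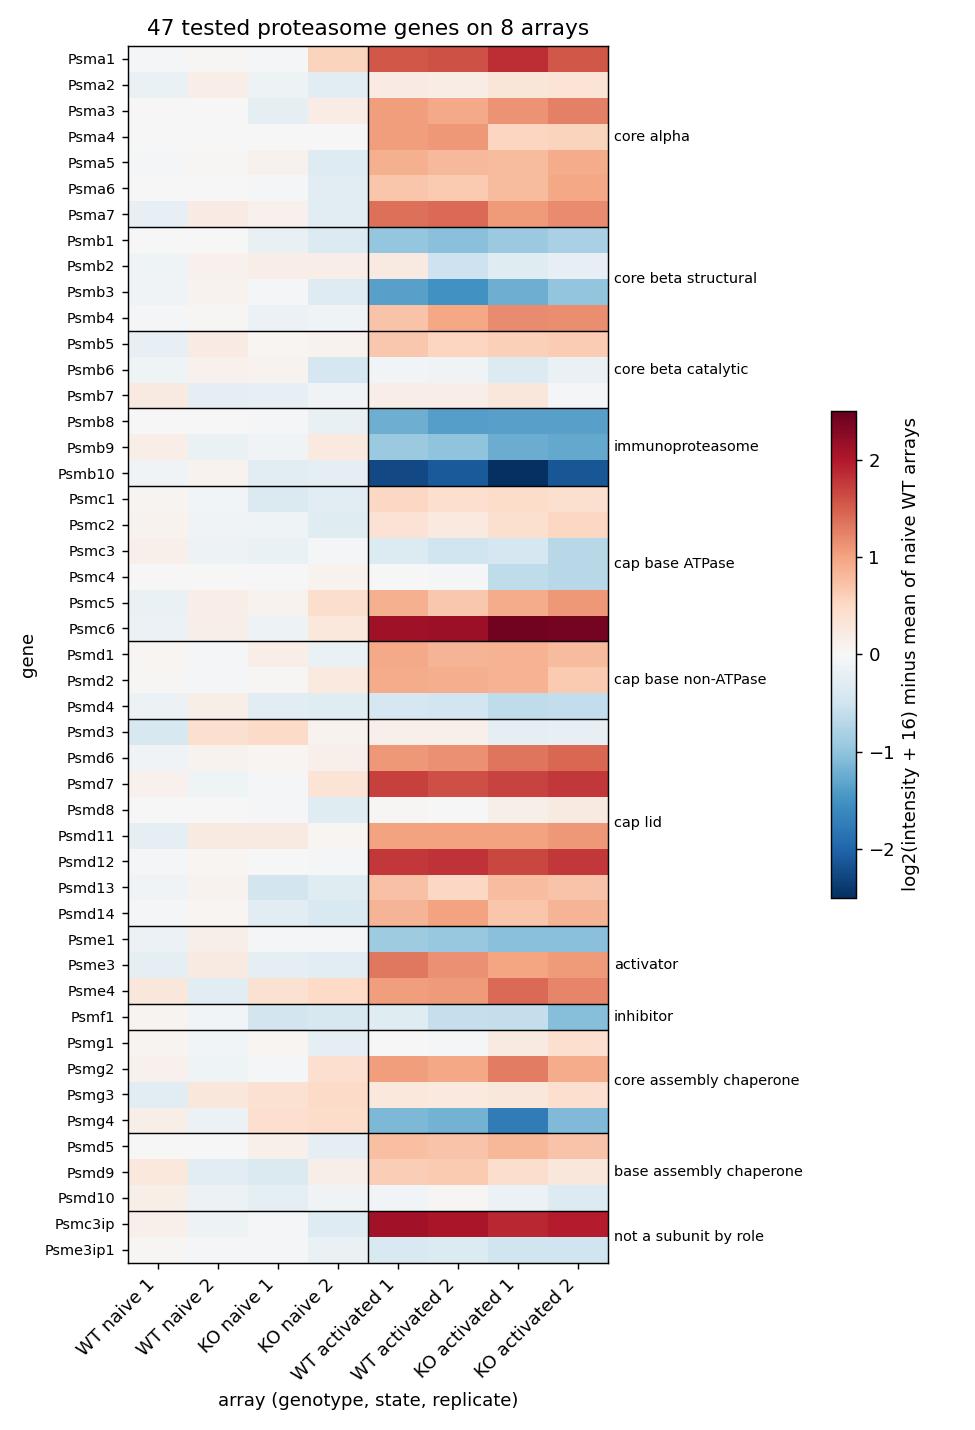
Log2(intensity + 16) minus the mean of the naive WT arrays for the 47 tested proteasome genes (rows, by role) on the 8 arrays (columns), red for higher and blue for lower. The alpha ring and lid are mostly red on the activated arrays (log2 changes of 1.57 for Psma1 and 1.79 for Psmd12 in WT), and the immunoproteasome is blue.

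Assembly factors divided as well. Of 4 core chaperones, Psmg2 rose (1.01 in WT and 0.91 in KO, adjusted p = 0.00117 and 0.00220) and Psmg4 fell, while Psmg1 and Psmg3 did not pass. Psmg4 read 853 and 689 in naive WT, 1029 and 1064 in naive KO, 343 and 331 in activated WT, and 216 and 347 in activated KO arrays. It fell 2.29-fold in WT (log2 −1.15, SE 0.25, adjusted p = 0.00362) and 3.72-fold in KO (log2 −1.87, SE 0.25, adjusted p = 0.000126), a difference that did not pass (adjusted p = 0.549). With the mean over probe sets, Psmg4 (−0.22 and −0.75) and Psmg2 (0.28 and 0.22) did not pass in either genotype. Of 3 base chaperones, Psmd5 rose (0.74 and 0.82), and Psmd9 and Psmd10 did not pass.

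Psmc3ip and Psme3ip1 meet the naming rule but encode binding partners and no subunit. Psmc3ip, a factor of meiotic recombination, read 519 and 433 in naive WT, 462 and 377 in naive KO, 2089 and 1989 in activated WT, and 1797 and 1898 in activated KO arrays. It rose by 2.07 in WT and 2.10 in KO (SE 0.19 in each, adjusted p = 8.18e-06 and 6.59e-06). Psme3ip1 changed by −0.37 and −0.39 (adjusted p = 0.0651 and 0.0507). Without these 2 genes, 23 of 45 were higher and 9 lower in WT, and 25 and 9 in KO. Of all probe sets tested, 17.4% were higher and 21.8% lower in WT, and 18.2% and 23.4% in KO.

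Several genes had probe sets that disagreed. Of the 19 genes with over 1 tested probe set and at least 1 called in WT, 13 had all probe sets on one side of 0. The other 6, Psma1, Psma3, Psmb1, Psmb4, Psmd13 and Psmg2, had one of opposite sign. In KO 13 of 23 were on one side, and the other 10 were Psma1, Psma3, Psma6, Psma7, Psmb1, Psmc2, Psmd7, Psmd9, Psmd13 and Psmg2. In KO a dimmer Psmd9 probe set fell by 1.65, while the brightest changed by 0.46 without passing. With the mean over probe sets the calls of Psma3 (0.36), Psma5 (0.40), Psmc1 (0.29), Psmd2 (0.66) and Psme4 (0.51) were also lost in WT, and those of Psma1 (0.65) and Psmc2 (0.06) in KO. Without _x_at and _s_at probe sets the WT call of Psmc3ip was lost (0.78).

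Genotype did not move any proteasome gene past the threshold. In naive cells 0 of 47 passed (limma, where 0.562% of all probe sets did), and 4 had an unadjusted p under 0.05, or 8.51% against a background of 12.1%. KO and WT arrays did not overlap for 4 genes higher (8.51%) and 12 lower in KO (25.5%), against 18.4% and 19.8% of all probe sets, or 38.2% in either direction. The median log2 change was −0.09, beside −0.00 for all probe sets tested. Every one of the 47 intervals of 95% lay within a 2-fold change in either direction, and 30 lay within 1.5-fold. A p that misses the threshold does not show that the genotypes are alike.

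The smallest p-values in naive cells belonged to lid and base genes. Psmd14 was lower in KO by 0.33 (SE 0.12, adjusted p = 0.303), Psmd13 by 0.38 (SE 0.15, adjusted p = 0.328) and Psmc1 by 0.33 (SE 0.13, adjusted p = 0.349), and both KO arrays were below both WT arrays for each. Psmd13 read 1979 and 2226 in WT and 1517 and 1698 in KO, and Psmc1 read 2879 and 2632 against 2130 and 2250. The immunoproteasome genes differed by −0.12 (Psmb8), 0.08 (Psmb9) and −0.26 (Psmb10), with the highest bound at 0.42 and the lowest at −0.67. These intervals come beside a granulocyte marker sum of 4647 and 19478 in naive KO and 405 and 688 in naive WT arrays, where 4 of 8 of those markers rose. NK marker sums were 1055 and 1120 in naive KO against 156 and 320 in naive WT arrays, and the NK receptor gene Klra8 was 6.64-fold higher in KO (adjusted p = 0.0493). Macrophage and monocyte sums were 3840 and 6306 against 2198 and 2596, with 0 of 6 markers passing. The part of these cells in the values was not tested.

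In activated cells again 0 of 47 passed (limma, background 0.215%), and 5 had an unadjusted p under 0.05, or 10.6% against 10.5%. Arrays did not overlap for 15 genes higher (31.9%) and 16 lower in KO (34.0%), against 22.5% and 24.5% of all probe sets, or 47% in either direction. The median was −0.03, beside −0.02 for all. All 47 intervals lay within 2-fold and 30 within 1.5-fold.

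Psmc4, an ATPase of the base, came nearest to the threshold. It read 8013 and 8089 in naive WT, 7973 and 8507 in naive KO, 8017 and 7736 in activated WT, and 5170 and 4986 in activated KO arrays. Only the 2 activated KO arrays were low. The KO value was 1.55-fold lower in activated cells (log2 −0.63, SE 0.11, adjusted p = 0.0616), and a second Psmc4 probe set differed by −0.54 (adjusted p = 0.203). With the 4 activated arrays fitted alone it passed (adjusted p = 0.0107), and also without naive KO replicate 1 (0.0478) or 2 (0.0488). Within KO it fell with activation by 0.70 (adjusted p = 0.000491) and within WT it changed by −0.03 (adjusted p = 0.850). The difference of the genotype effect between states was −0.66 (SE 0.16, adjusted p = 0.178).

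The alpha gene Psma4 followed. It read 2864 and 2905 in naive WT, 2888 and 2901 in naive KO, 5939 and 6098 in activated WT, and 4177 and 4238 in activated KO arrays. It rose in both genotypes, and the activated KO arrays stood between the naive and the activated WT arrays. The difference in activated cells was −0.51 (SE 0.12, adjusted p = 0.134, and 0.0231 with the 4 activated arrays fitted alone). Psmb4 was higher in activated KO by 0.33 (SE 0.11, adjusted p = 0.318), with 22230 and 26502 in WT and 30703 and 30170 in KO. The genotype effect did not differ between states for any of the 47 genes at the threshold (limma, background 0.0584%), and 7 had an unadjusted p under 0.05, or 14.9% against 9.73%. Psmc4, Psma4 (−0.52, adjusted p = 0.342) and Psmb4 (0.45, adjusted p = 0.372) had the smallest p.

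**Figure D4:**
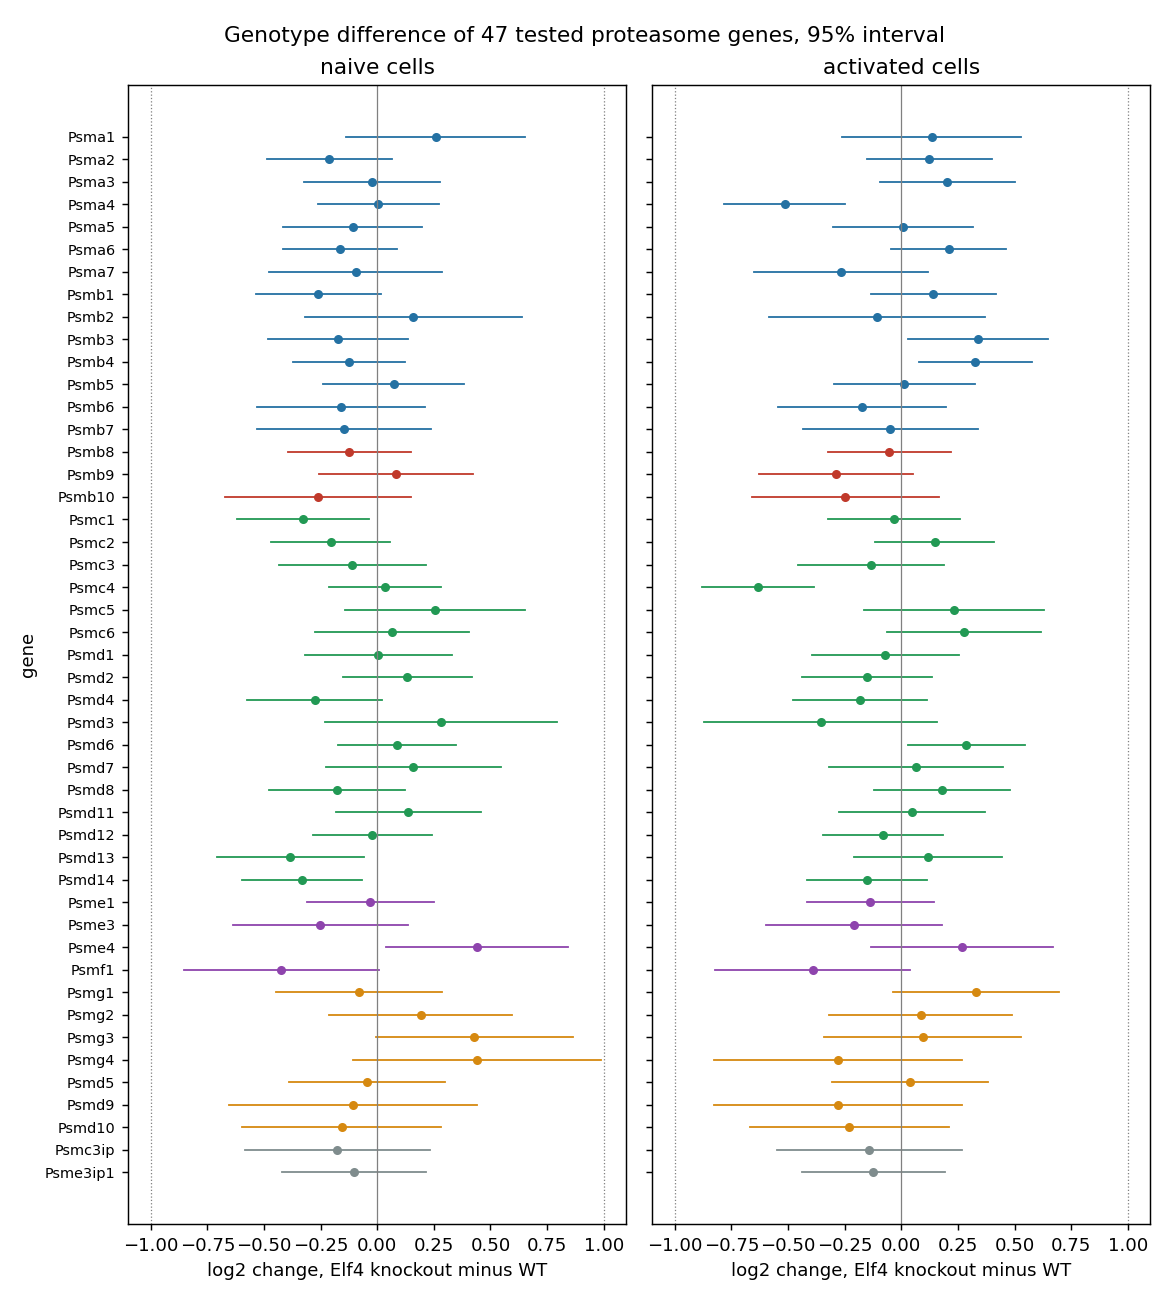
Log2 change of KO against WT with its 95% interval from limma for the 47 tested proteasome genes in naive (left) and activated cells (right), coloured by role as blue core, red immunoproteasome, green cap, purple activator or inhibitor, orange chaperone and grey other. All intervals lie between the dotted lines at a 2-fold change, and Psmc4 at −0.63 and Psma4 at −0.51 in activated cells lie farthest to the left.

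Partners of the proteasome were measured beside it. Of 24 listed factors that bind, assemble or regulate it 20 were measured, of which 6 rose and 2 fell in WT with activation (30.0% and 10.0%, against 17.4% and 21.8% of all probe sets). In KO 8 rose and 6 fell (40.0% and 30.0%, against 18.2% and 23.4%). The median was 0.16 in WT and 0.28 in KO. Those with the smallest p were the cap-bound thioredoxin-like gene Txnl1 (1.82 and 2.27, adjusted p = 8.42e-07 and 1.85e-07), the deubiquitinase gene Uchl5 (2.15 and 1.98, 1.25e-06 and 2.04e-06) and the ubiquitin shuttle gene Rad23b (2.01 and 2.18, 5.68e-05 and 2.83e-05). The lid component gene Sem1 fell (−0.82 and −0.58, adjusted p = 0.000326 and 0.00295). The core assembly factor gene Pomp changed by 0.39 and 0.31 without passing (0.0677 and 0.128). Nfe2l1, the transcription factor known to raise proteasome genes when the proteasome is inhibited, changed by −0.24 in WT and 0.36 in KO and did not pass (0.425 and 0.216).

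Between genotypes 1 of these 20 passed, in naive cells (5.0%, against 0.562% of all probe sets). Zfand5, which encodes a zinc finger protein that stimulates the proteasome, read 3613 and 4246 in naive WT and 1640 and 1849 in naive KO arrays, with 4864 and 4515 in activated WT and 3676 and 5418 in activated KO arrays. The naive KO arrays alone were low, and they are also the arrays with the high granulocyte, NK and macrophage marker sums given above, whose part in this was not tested. In naive cells KO was lower by 1.16 (SE 0.18, adjusted p = 0.0260), and the effect was not shown to differ between states (difference 1.09, SE 0.26, adjusted p = 0.180). The probe set is an _s_at one, a kind that can bind several transcripts, and Zfand5 was not carried through the alternatives. Over all probe sets, calls in this comparison went from 154 to 3 without the eBayes trend and 5 with the 4 naive arrays alone. They were 18 with the Actb ratio as a covariate and 138 with quantile normalization. Of 6 listed ubiquitin and ubiquitin-activating genes 1 was measured, Uba6, which rose by 2.34 in WT and 1.95 in KO (adjusted p = 7.40e-06 and 2.45e-05).

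The genes of MHC class I antigen processing, the pathway that uses immunoproteasome products, fell more often than they rose. Of 13 measured, 9 fell and 3 rose in WT (69.2% and 23.1%, against 21.8% and 17.4% of all probe sets), and 7 fell and 3 rose in KO (53.8% and 23.1%, against 23.4% and 18.2%). The median was −0.81 in WT and −0.67 in KO. Irf1, the transcription factor that drives Psmb9, Tap1 and other interferon-response genes, read 12532 and 14831 in naive WT, 12668 and 11405 in naive KO, 2825 and 2805 in activated WT, and 1971 and 1952 in activated KO arrays. It fell by 2.27 in WT and 2.61 in KO (SE 0.13 in each, adjusted p = 3.56e-07 and 1.44e-07). Nlrc5, the transactivator of MHC class I genes, fell by 1.0 and 1.76. The peptide transporter genes Tap1 (−1.31 and −1.87) and Tap2 (−1.05 and −1.27), which alternate with Psmb9 and Psmb8 on chromosome 17, fell with them, as did the peptide-loading gene Tapbp (−1.76 and −1.70). The 3 that rose were the general folding genes Calr (1.54 and 2.0), Canx (1.38 and 1.68) and Pdia3 (1.26 and 1.17). No gene of this list passed between genotypes in either state (limma, 0 of 13 in each).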

How the data were processed

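Gene expression was measured on 8 Affymetrix arrays. The authors deposited linear intensity values made with MAS5, per the submitters' processing notes (version not given in the sources used here); every array had a trimmed mean of 500 after leaving out 2% at each end. From these, log2(intensity + 16) was computed, so fold changes on the log2 scale understate changes of dim genes, while folds printed as such are ratios of mean deposited intensity. Of 45101 probe sets, 64 controls were left out, and 27389 at or above the array median on at least 2 of 8 arrays were tested. Gene names came from GEO's platform annotation, updated by Entrez ID: 34958 probe sets had 1 symbol, 932 several and 9211 none. One model with 4 group means was fitted with limma (version 3.58.1, R 4.3.3; lmFit, eBayes with a trend), with 5 contrasts, Benjamini-Hochberg adjustment over all probe sets tested and a threshold of 0.05. An exact permutation test of 2 against 2 arrays cannot go below p = 0.333, and the number of arrays limits the precision. The fit was tested on simulated data with the spread of these arrays. There it missed many of the changes put in, more of the smaller ones, so a gene that did not pass may still differ. Far fewer probe sets were changed there than were called with activation, so its rate of misses does not carry over to activation. No power is claimed from it. Genes were named by a rule: the catalytic, immunoproteasome, activator and inhibitor genes, per contrast the 4 largest rises and 4 largest falls that passed without overlap between arrays, the 3 smallest p-values per genotype contrast and per other list, and genes whose probe sets disagreed; further members were named after their values were seen, and all tested proteasome genes were carried through the alternatives for activation. The members, gene lists and marker lists were chosen with earlier results of these data known. Alternatives were the offset, normalization, filter, eBayes trend, the 4 arrays of a comparison alone, a replicate block, the Actb ratio as a covariate, the probe set rule and leaving out each array; the crossed replicate block was chosen after seeing the data. Same-numbered samples had deviations correlated between −0.17 and 0.07. This shows no strong shared effect, but with 2 arrays per group it cannot show that same-numbered samples of a state are unpaired. Between the states, Xist and Eif2s3y read as male in naive and as female in activated samples. Same-numbered samples of different states thus do not appear to come from the same animal. The main fit used no pairing.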

Additional observations from a re-analysis of the deposited data

How the results depend on the processing

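Among the 2780 values of single proteasome genes under an alternative, 2614 stayed on their side of the threshold, 44 passed where they had not and 112 no longer passed. Another 10 changed direction and had passed in the main or the alternative fit. Changes of direction in values that passed in neither fit were not counted apart and are among the 2614. The falls of Psmb8, Psmb9, Psmb10 and Psme1 kept their sign under all 21 alternatives in both genotypes, between −4.32 and −0.61 on the log2 scale, and their calls were lost under 1 of these, the Actb ratio as a covariate, which Psmb10 in WT passed. With that covariate, which nearly coincides with state, 2 genes were called in WT (Psmb10 and Psmb3, with 484 probe sets in all) and 0 in KO (0 in all), and these changed direction: Psmc3 to 0.31 in WT and 0.73 in KO, and in KO Psmb5 to −0.0839, Psma2 to −0.0393 and Psmc5 to −0.16. With the mean over a gene's probe sets, Psmb1 turned to 0.0076 in WT and 0.39 in KO, and Psmd13 to −0.12 in WT. Without probe sets of the _x_at and _s_at kinds, Psmb4 turned to −0.25 in WT and Psmc2 to −0.11 in KO. The median change of the proteasome genes with activation in WT (0.60) became 0.46 with an offset of 64, 0.50 with quantile normalization, 0.79 with arrays centred on their medians, 0.19 with the mean over probe sets and 0.47 without _x_at and _s_at probe sets. In KO (0.54) it became 0.66 with centred arrays and 0.41 with the mean over probe sets. Centring also moved the naive genotype median from −0.09 to 0.0097 and the median of all probe sets with activation from −0.16 to 0.03 in WT and −0.04 in KO. It gave 27 genes higher and 7 lower in WT and 27 and 8 in KO, the mean over probe sets 15 and 8 in WT and 22 and 10 in KO, probe sets without _x_at and _s_at 21 and 9 and 23 and 9, and eBayes without a trend 22 and 7 and 24 and 8. Calls over everything tested, in WT and KO, were 9872 and 10614 of 27389 with centring and 5002 and 5248 of 11515 with the mean over probe sets. They were 9065 and 9668 of 24013 without _x_at and _s_at probe sets, and 9557 and 10311 of 27389 without a trend. Between genotypes in activated cells, the 4 arrays alone called 2 genes, Psmc4 and Psma4, among 719 probe sets in all, and leaving out each array called 0 to 1. For activation, leaving out each array called 27 to 35 genes in WT and 32 to 39 in KO. The replicate block gave 0 and 0 genes for genotype in naive and activated cells, 33 and 35 for activation in WT and KO, and 0 for the difference between states, the counts found without it. The crossed replicate block gave 0, 0, 34, 36 and 0. With 2 arrays per group, the intervals of the naive genotype differences reached a median of 1.25-fold to either side, which limits what could be detected.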
